A study of Bos taurus with 16 samples.

Results

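Chemokines and their receptors were examined in the livers of Angus steers as all genes whose single symbol in the array annotation begins with CCL, CXCL, CCR or CXCR and a digit, or with CX3C, XCR or XCL. This gave 48 genes, 32 chemokines and 16 receptors, out of 18010 genes with 1 symbol, and each was read by 1 probe set. A further 5 probe sets with such a symbol, whose annotation joins several gene IDs, were left out. Finishing steers (n = 8) were raised to a final weight of 576 kg, and growing steers (n = 8) were sampled earlier in growth, at a final weight of 301 kg. Both groups were weaned Angus males that started at 209 ± 29.4 kg and were fed individually on a diet based on cotton seed hulls for a gain of 1.5 kg per day. Whole liver RNA from each steer was hybridised to 1 array. Final weight went with a longer feeding period and a higher age, and these cannot be told apart.

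Chemokines are small secreted proteins that guide leukocytes along gradients by binding G protein-coupled receptors on the migrating cell. They are sorted by the spacing of their first cysteines into CC, CXC, XC and CX3C families, and each receptor is named after the family it binds. Inflammatory chemokines are induced by infection, cytokines or interferon, whereas homeostatic ones are made constantly and keep lymphocytes and precursor cells in place. In liver, sinusoidal endothelium, Kupffer cells, stellate cells, bile duct cells and hepatocytes all make some of them, and the receptors are carried mainly by resident and passing leukocytes.

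Array medians lay between 5.57 and 5.64 on the log2 scale, and correlations between arrays ran from 0.968 to 0.990. All 10 hepatocyte markers measured (among them ALB and TTR) had means above the median probe set mean of 5.60. The deposited values carry no detection calls, and 25 of the 48 genes had a mean below that median, so a small difference among these may be compressed. Signals of different probe sets are not comparable as transcript amounts, and all comparisons here are between steers for the same probe set. The number of arrays limits the precision.

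In finishing livers 5 of 16 receptors, known from T cells, natural killer cells, monocytes or dendritic cells, were lower, together with 4 of 32 chemokines. Of all named genes 5.66% were lower. CCR2, XCR1, CXCR3, CXCR6 and CX3CR1 fell among the receptors, and CCL2, CCL5, CCL21 and CXCL12 fell among the chemokines. The falls were small, 1.2-fold to 1.5-fold. With 1 array left out at a time, CCR2, XCR1, CCL5 and CCL21 still passed the threshold given below in all 16 fits. CXCR3, CXCR6, CX3CR1, CCL2 and CXCL12 each failed to pass it in some of those fits. CCL16, a chemokine made by hepatocytes in humans, differed by 0.01 ± 0.10 on the log2 scale (SE).

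By limma, with adjustment over all 26773 probe sets, 9 of the 48 genes passed the threshold of 0.05 with a lower signal in finishing livers, which is 18.8% of them, beside 5.66% of the 18010 named genes and 4.3% of all probe sets. None passed with a higher signal, beside 2.7% of named genes and 2.34% of all probe sets (6.64% passed in either direction). At an unadjusted p under 0.05, 19 of the 48 were lower and 1, CXCL14, was higher, beside 13.8% and 10.9% of named genes. Receptors accounted for 5 of the 9 calls and 16 of the 48 genes, and their contrast with chemokines was not tested. The median difference was -0.10 over the 48 genes, -0.19 over receptors and -0.09 over chemokines, beside 0.01 over all named genes. Negative differences made up 34 of the 48, where 46.9% of named genes had one. Of the 23 genes with a mean at or above the median probe set 7 fell, and of the 25 dimmer ones 2 fell, CCL2 and CCL21. In a fit of only the 13387 probe sets at or above that median, 10 of the 23 genes and 1317 probe sets were lower. No such share was computed for dim probe sets, so the contrast of bright and dim genes was not tested. In none of the 48 genes did all finishing steers lie below all growing steers, a separation seen in 0.972% of named genes, nor did all lie above (0.239% of named genes). The count of 9 was 4 without growing replicate 6 or finishing replicate 8, and 5 without growing replicate 1 or 7.

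**Figure D1:**
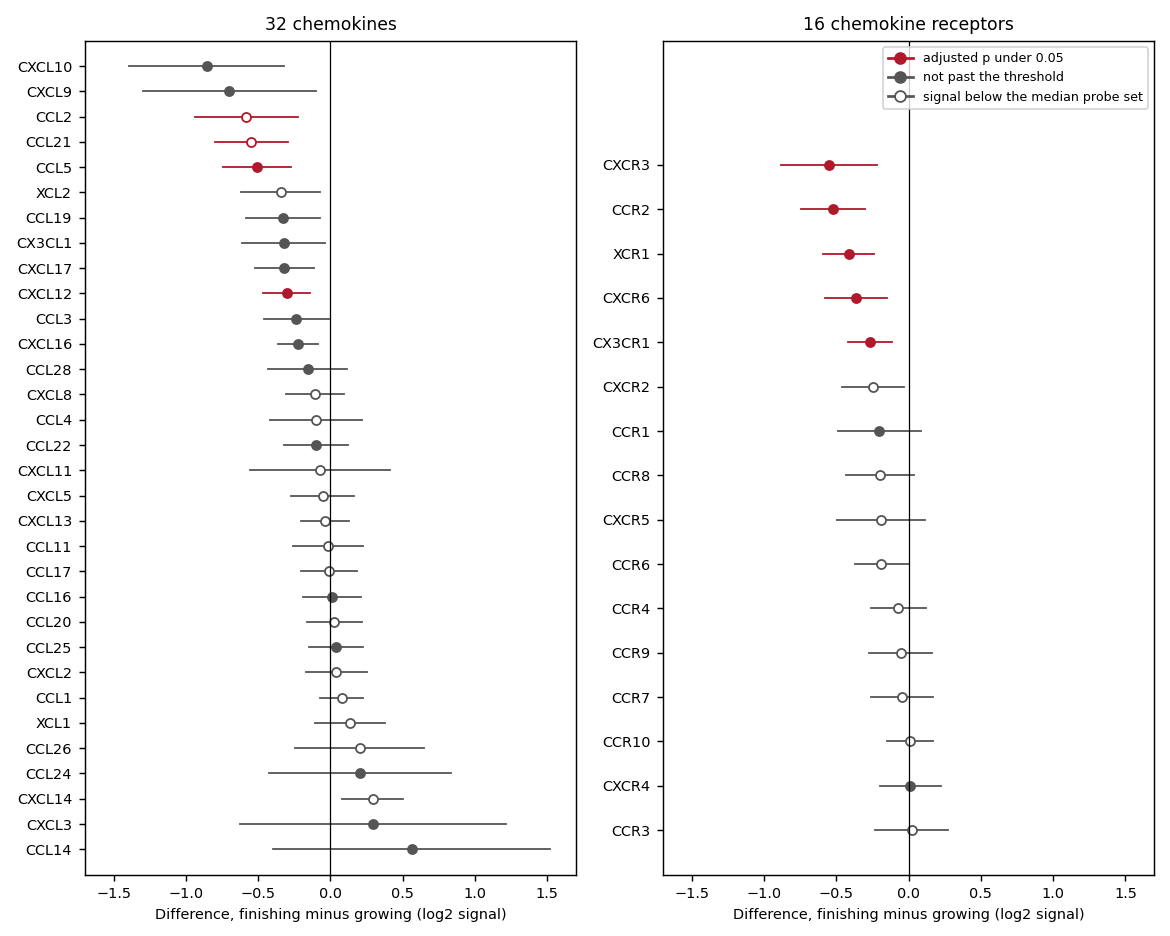
Difference in log2 signal, finishing minus growing, for 32 chemokines (left) and 16 receptors (right), with 95% intervals from limma. Red marks the 9 genes past an adjusted p of 0.05, and open circles mark genes whose mean signal lay below the median probe set; all 9 red points lie left of 0.

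Whole liver mixes many cell types, and fewer cells of a type cannot be told apart from less RNA per cell in any of these values. Among T and NK lymphocyte markers, 9 of 23 measured fell and 0 rose, where 5.66% of named genes were lower and 2.7% higher, with a summed log2 signal of 117 to 128 in finishing steers and 127 to 142 in growing steers. Markers of Kupffer cells and macrophages fell in 5 of 13, with a sum of 105 to 119 in finishing steers and 114 to 121 in growing steers. No marker on either list is at 0, since the log2 scale has a background, but 13 of the 23 lymphocyte markers and 0 of the 13 macrophage markers had a mean below the median probe set. Stellate cell and fibroblast markers fell in 8 of 11, with sums that did not overlap, 77.4 to 80.7 in finishing steers and 84.2 to 87.0 in growing steers. CD79A fell among 9 B and plasma cell markers, KIT among 4 mast cell and eosinophil markers, and none of 6 cholangiocyte markers passed. The part of these shifts in the chemokine results was not tested.

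CCR2, the receptor that brings monocytes out of blood towards CCL2, had the smallest p of the family. Its log2 signal ran from 5.33 to 5.79 in finishing steers (median 5.53) and from 5.60 to 6.40 in growing steers (median 6.08). Of the finishing steers 5 lay below every growing steer, and growing replicate 5, at 5.60, was the only growing steer inside the finishing range. CCR2 fell by 0.52 ± 0.10 (SE, n = 8 per group; 1.44-fold lower, adjusted p = 0.00753 by limma), and the call held in all 16 fits that left out 1 array (adjusted p from 0.00269 to 0.0178). Its ligand CCL2, the main monocyte attractant, ran from 4.14 to 4.89 in finishing steers (median 4.54) and from 4.49 to 5.64 in growing steers (median 5.15). Growing steers formed a high set (replicates 3, 4, 6 and 7, from 5.42 to 5.64) and a low set (replicates 1, 2, 5 and 8, from 4.49 to 4.88), and the low set lay within the finishing range. CCL2 fell by 0.58 ± 0.17 (adjusted p = 0.0481), a call kept only in the fits without growing replicate 2, 5 or 8 or finishing replicate 1 and lost in the other 12 (highest adjusted p = 0.0943). CCR1, a receptor for CCL3 and CCL5 on myeloid cells, ran from 5.60 to 6.03 in finishing steers (median 5.73) and from 5.48 to 6.63 in growing steers (median 5.98). It differed by -0.20 ± 0.14 (95% interval -0.49 to 0.08, adjusted p = 0.417). Growing steers were more uneven for CCR1, with an SD of 0.13 in finishing steers and 0.39 in growing steers.

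XCR1, the receptor that marks cross-presenting dendritic cells, ran from 5.16 to 5.71 in finishing steers (median 5.49) and from 5.57 to 6.15 in growing steers (median 5.87). Only growing replicate 6, at 5.57, lay inside the finishing range. XCR1 fell by 0.42 ± 0.08 (1.33-fold lower, adjusted p = 0.00869), and the call held in all 16 leave-one-out fits (highest adjusted p = 0.0199). Of 12 monocyte and dendritic cell markers measured, CD14 and LYZ fell and CD1E rose, by 0.51 ± 0.11 (adjusted p = 0.0114). The direction was thus not shared across the 12 markers. Over named genes 5.66% were lower and 2.7% higher. XCL2, a ligand of XCR1 made by activated T and NK cells, had 4.70 to 5.46 in finishing steers and 4.94 to 5.78 in growing steers, a difference of -0.34 ± 0.13 (adjusted p = 0.125). XCL1, its close paralog, was near the bottom of the scale at 2.51 to 3.32 in finishing steers and 2.48 to 3.16 in growing steers, and differed by 0.13 ± 0.11 (adjusted p = 0.544). The probe sets of these paralogs may not read them fully separately, which was not tested, and the same holds for CCL3 and CCL4.

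CXCR3, carried by type 1 helper T cells, cytotoxic T cells and NK cells, ran from 5.50 to 6.47 in finishing steers (median 5.68) and from 6.02 to 6.88 in growing steers (median 6.39). Finishing replicates 1, 3 and 7 (6.33, 6.47 and 6.08) lay within the growing range and the other 5 below it. CXCR3 fell by 0.55 ± 0.16 (adjusted p = 0.0434), and the call was kept in 4 of 16 leave-one-out fits, those without growing replicate 1 or 8 or finishing replicate 1 or 3, and lost in the other 12 (highest adjusted p = 0.0845). CXCR6, found on liver-resident T and NK cells, ran from 5.10 to 5.72 in finishing steers (median 5.53) and from 5.58 to 6.06 in growing steers (median 5.79). Finishing replicates 4 and 8, both at 5.10, were lowest. CXCR6 fell by 0.37 ± 0.10 (adjusted p = 0.0394), and its call was kept without growing replicate 2 or 5 or finishing replicate 1, 2 or 5 and lost in the other 11 fits (highest adjusted p = 0.0761). CX3CR1, the fractalkine receptor of patrolling monocytes and cytotoxic lymphocytes, ran from 6.13 to 6.63 in finishing steers (median 6.45) and from 6.55 to 6.82 in growing steers (median 6.70). Of the finishing steers 7 lay below every growing steer, with replicate 3, at 6.63, the exception. CX3CR1 fell by 0.27 ± 0.07 (adjusted p = 0.0323); the call was lost in 8 of 16 fits (without growing replicates 1, 4, 5, 6 and 7 and finishing replicates 2, 7 and 8; highest adjusted p = 0.0638). Without finishing replicates 5 and 6, whose median correlations with their own group (0.978 and 0.981) were the lowest of the 16 arrays, CXCR3 and CX3CR1 did not pass (adjusted p = 0.145 and 0.0678), nor did CCL2 (adjusted p = 0.150), while CXCR6 did (adjusted p = 0.0445).

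**Figure D2:**
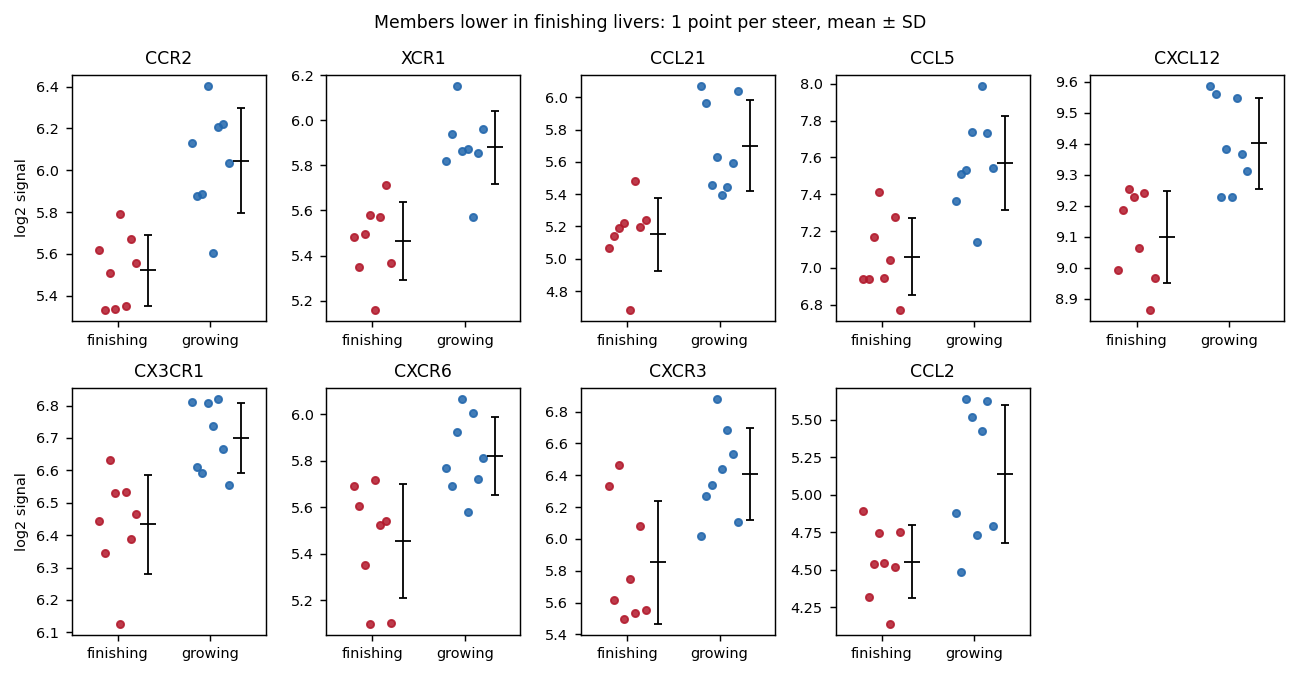
Log2 signal of the 9 genes that were lower in finishing livers, 1 point per steer, with the mean and SD beside each group. For CCL21 and CX3CR1 7 of 8 finishing steers lie below every growing steer; in CCL2 the growing steers split into a high and a low set.

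The membrane-bound ligands of the last receptors pointed the same way without passing the threshold. CXCL16, the transmembrane ligand of CXCR6 that is made by sinusoidal endothelium, ran from 9.67 to 10.13 in finishing steers (median 9.85) and from 10.01 to 10.20 in growing steers (median 10.07). Of the finishing steers 7 lay below every growing steer, and replicate 5, at 10.13, lay among them. The difference was -0.23 ± 0.07 (adjusted p = 0.0514), and it passed without finishing replicate 5 (adjusted p = 0.0168) or replicate 7 (adjusted p = 0.0496). CX3CL1, fractalkine, ran from 6.22 to 7.15 in finishing steers and from 6.96 to 7.72 in growing steers. Finishing replicate 7 alone gave the 6.22, the other finishing steers being at 6.99 or above. CX3CL1 differed by -0.32 ± 0.14 (adjusted p = 0.171), and by -0.22 without that steer (adjusted p = 0.250). Endothelial markers fell in 2 of 11 measured, PECAM1 and CDH5, and 0 rose, beside 5.66% of named genes lower and 2.7% higher. Their relation to these ligands was not tested.

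The 3 interferon-induced ligands of CXCR3 gave differences of unequal size, though the inequality itself was not tested. CXCL10 ran from 4.75 to 6.16 in finishing steers (median 5.49) and from 5.69 to 7.86 in growing steers (median 6.16). It differed by -0.86 ± 0.26 (1.81-fold lower, adjusted p = 0.0528), the largest difference in the family, and 6 finishing steers lay below every growing steer. CXCL9 ran from 5.24 to 6.55 in finishing steers (median 6.03) and from 6.06 to 8.30 in growing steers (median 6.40), a difference of -0.70 ± 0.28 (adjusted p = 0.157). CXCL11 ran from 3.59 to 4.77 in finishing steers and from 3.69 to 5.53 in growing steers, a difference of -0.07 ± 0.23 (95% interval -0.56 to 0.41, adjusted p = 0.894). Growing replicate 4 was highest for all 3, at 8.30, 7.86 and 5.53 for CXCL9, CXCL10 and CXCL11, while the next growing steers reached 7.08, 6.46 and 4.01. Without it CXCL10 differed by -0.64 and passed (adjusted p = 0.0392), CXCL9 differed by -0.46 (adjusted p = 0.193), and the CXCL11 difference was 0.13 (adjusted p = 0.660). CXCL10 also passed without growing replicate 3, finishing replicate 3 or finishing replicate 7, with a lowest adjusted p of 0.0343 over the 16 fits. In the interferon list, which holds none of these chemokines, IFI6, IRF9 and PSMB8 of 24 measured fell and 0 rose. Over named genes 5.66% were lower and 2.7% higher. The median difference in the interferon list was -0.31, beside 0.01 over named genes. The list's mean signal per steer was highest in growing replicate 1 (7.55), where CXCL9 and CXCL10 were among the lower growing values (6.06 and 5.86). Next highest was growing replicate 4 (7.45). IFNG itself lay near the bottom of the scale and differed by -0.12 ± 0.10.

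**Figure D3:**
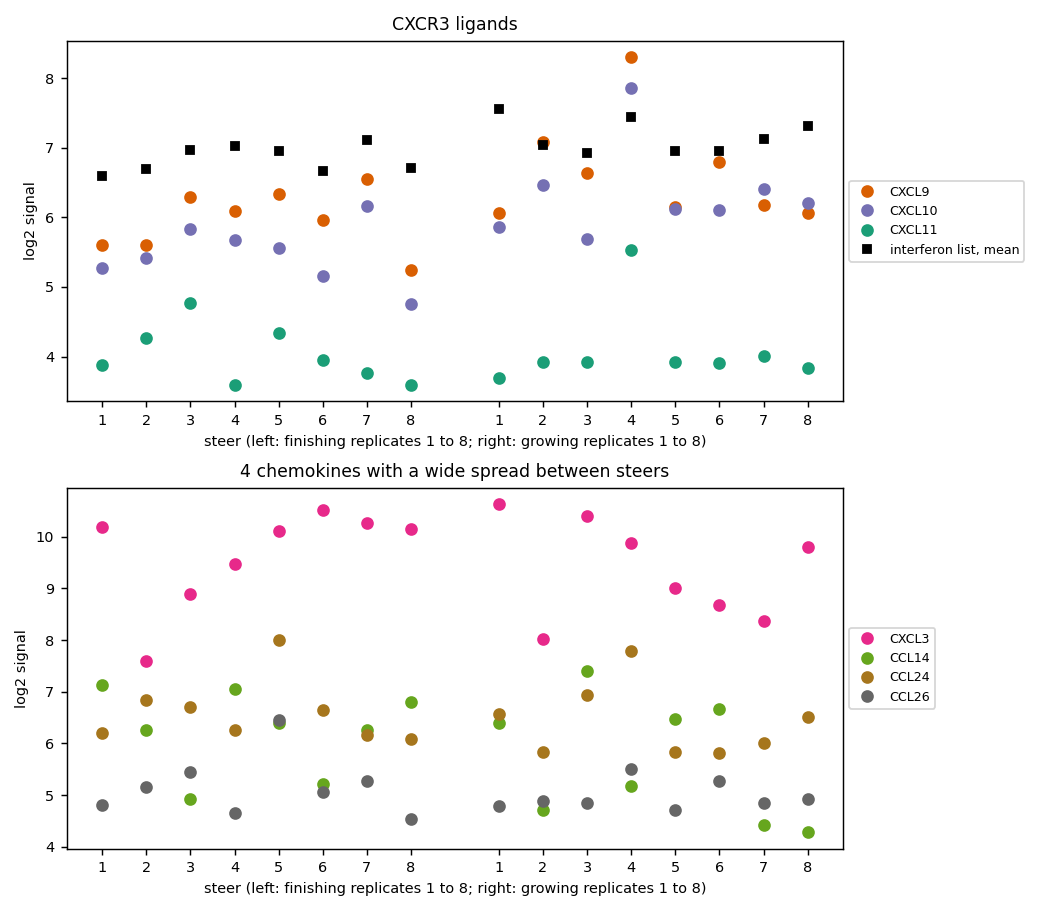
Log2 signal in each steer of the CXCR3 ligands with the mean of the interferon list (top), and of 4 chemokines with a wide spread between steers (bottom). Finishing steers are on the left and growing steers on the right, each by replicate number. Growing replicate 4 stands highest for CXCL9, CXCL10 and CXCL11, and CXCL3 and CCL14 range over several log2 units within both groups.

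CCL5, released by T and NK cells and platelets, ran from 6.77 to 7.41 in finishing steers (median 6.99) and from 7.14 to 7.99 in growing steers (median 7.54). Of the finishing steers 5 lay below every growing steer. CCL5 fell by 0.51 ± 0.11 (1.42-fold lower, adjusted p = 0.0134), and the call held in all 16 leave-one-out fits (highest adjusted p = 0.0282). Among its receptors, CCR1 is given above, and CCR3, an eosinophil receptor, ran from 3.89 to 4.47 in finishing steers (median 4.03) and from 3.61 to 4.40 in growing steers (median 4.13). The CCR3 difference was 0.02 ± 0.12 (95% interval -0.23 to 0.27, adjusted p = 0.944). CCL3, a macrophage inflammatory protein, ran from 5.65 to 6.21 in finishing steers (median 5.82) and from 5.62 to 6.35 in growing steers (median 6.12), a difference of -0.24 ± 0.11 (adjusted p = 0.210). CCL4, its relative, differed by -0.10 ± 0.15 (adjusted p = 0.760). Platelet markers did not pass in any of 6 measured, at summed signals of 34.4 to 36.0 in finishing and 34.5 to 35.7 in growing steers.

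CXCL12, the homeostatic chemokine of stromal cells and sinusoids, ran from 8.86 to 9.25 in finishing steers (median 9.12) and from 9.23 to 9.59 in growing steers (median 9.37). Growing replicates 3 and 5, both at 9.23, overlapped with the 2 highest finishing steers, and 6 finishing steers lay below all growing ones. CXCL12 fell by 0.30 ± 0.08 (1.23-fold lower, adjusted p = 0.0254); the call was lost in 5 of 16 fits (without growing replicates 1, 2 and 6 and finishing replicates 7 and 8; highest adjusted p = 0.0529). Its receptor CXCR4, present on most leukocytes, had 5.28 to 6.01 in finishing steers and 5.34 to 5.95 in growing steers. The CXCR4 difference was 0.01 ± 0.10 (95% interval -0.20 to 0.22, adjusted p = 0.966) and that interval leaves out a fall of 0.30. ACKR3, the atypical receptor that scavenges CXCL12, differed by -0.10 ± 0.09 at a signal below the median probe set.

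CCL21 and CCL19, the ligands of CCR7 that place T cells and dendritic cells in lymphoid tissue, lie next to each other in the bovine gene order. CCL21, also made by lymphatic endothelium, ran from 4.68 to 5.48 in finishing steers (median 5.19) and from 5.40 to 6.07 in growing steers (median 5.61). Growing replicates 1, 2 and 8 (6.07, 5.96 and 6.04) were highest, and finishing replicate 6, at 5.48, was the only finishing steer inside the growing range. CCL21 fell by 0.55 ± 0.12 (1.46-fold lower, adjusted p = 0.0131), and the call held in all 16 leave-one-out fits (highest adjusted p = 0.0281). CCL19 had 6.06 to 6.50 in finishing steers and 6.26 to 7.23 in growing steers, a difference of -0.33 ± 0.12 (adjusted p = 0.119). CCR7 ran from 4.79 to 5.35 in finishing steers (median 5.24) and from 5.01 to 5.52 in growing steers (median 5.13), with overlapping groups. It differed by -0.05 ± 0.10 (95% interval -0.26 to 0.17, adjusted p = 0.833). Of 4 lymphatic endothelial markers, PROX1, FLT4, PDPN and LYVE1, none passed, at summed signals of 31.5 to 33.4 in finishing and 32.3 to 32.7 in growing steers.

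**Figure D4:**
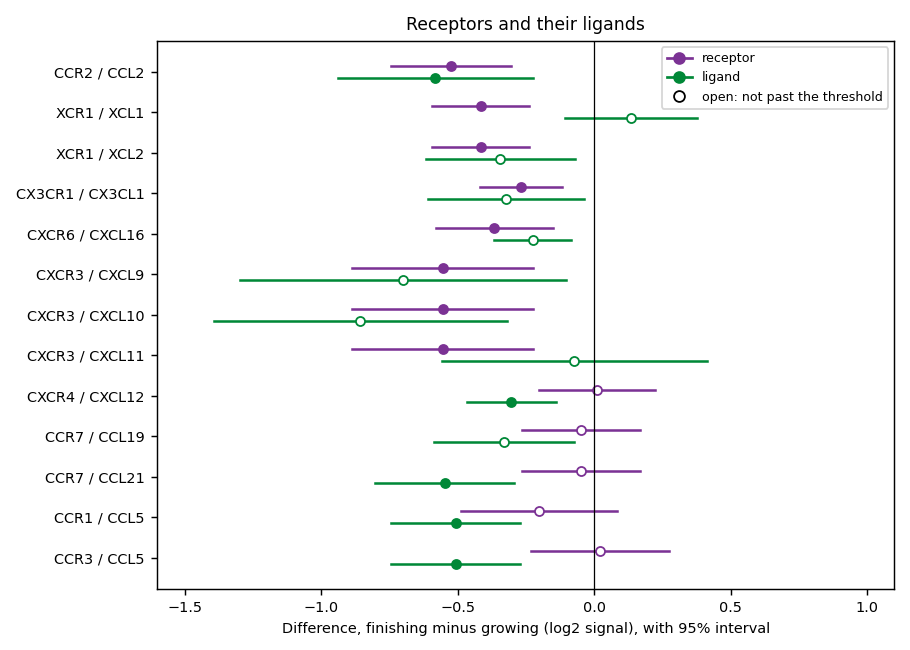
Differences in log2 signal, finishing minus growing, for receptors (purple) and their ligands (green), with 95% intervals; open circles did not pass the threshold. In CCR2 with CCL2 both partners fell, whereas CXCR4 and CCR7 lie near 0 beside lower CXCL12 and CCL21.

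None of the neutrophil-directed chemokines examined passed the threshold, nor did their receptor CXCR2. CXCL1 and CXCR1 were not among the genes examined. CXCL2, CXCL5 and CXCL8, which recruit neutrophils, had differences of 0.04 ± 0.10, -0.05 ± 0.10 and -0.11 ± 0.09 at means below the median probe set, with adjusted p from 0.567 to 0.858. The receptor CXCR2 had 4.62 to 5.25 in finishing steers and 4.82 to 5.39 in growing steers, a difference of -0.25 ± 0.10 (adjusted p = 0.159). None of 8 neutrophil markers passed, with sums of 38.5 to 40.8 in finishing and 38.0 to 40.6 in growing steers. CXCL3, of the same subfamily, varied widely between steers. It ran from 7.59 to 10.52 in finishing steers (median 10.12) and from 8.02 to 10.62 in growing steers (median 9.40). The difference was 0.30 ± 0.44 (adjusted p = 0.755), and the spread within groups, an SD of 0.98 in finishing and 0.96 in growing steers, exceeded that of 99.8% of named genes. CXCL2 and CXCL3 are close paralogs and neighbours. The CXCL3 signal may hold RNA of related genes, which was not tested.

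CCL14 and CCL16, both found in human liver, are adjacent in the bovine gene order. CCL16 had 11.50 to 12.03 in finishing steers (median 11.76) and 11.45 to 12.11 in growing steers (median 11.75), and its 95% interval for the difference was -0.19 to 0.21 (adjusted p = 0.974). CCL14, a monocyte attractant found in human plasma, had 4.93 to 7.14 in finishing steers (median 6.33) and 4.28 to 7.39 in growing steers (median 5.79). Its difference was 0.56 ± 0.46 (95% interval -0.39 to 1.52, adjusted p = 0.516), and its within-group SD was the largest of the 48 genes. The next gene in the row is CCL5, which fell, so 3 consecutive genes gave 0.56, 0.01 and -0.51.

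Among the eosinophil attractants CCL24 and CCL26, also adjacent, finishing replicate 5 was highest in the finishing group for both, at 8.00 and 6.45. CCL24 otherwise ran from 6.09 to 6.85 in finishing steers and from 5.82 to 7.79 in growing steers, and CCL26 from 4.55 to 5.45 in finishing steers and from 4.72 to 5.51 in growing steers. Growing replicate 4 was highest in the growing group for both. The differences were 0.20 ± 0.30 for CCL24 and 0.20 ± 0.21 for CCL26 (adjusted p = 0.754 and 0.638), and 0.01 and 0.02 without finishing replicate 5. CCL11, the remaining eotaxin, differed by -0.02 ± 0.12 at 3.68 in finishing and 3.69 in growing steers.

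CXCL14, an epithelial chemokine, gave the only positive difference with an unadjusted p under 0.05. It ran from 4.93 to 5.31 in finishing steers (median 5.10) and from 4.54 to 5.19 in growing steers (median 4.74), where replicates 3 and 5 (5.19 and 5.18) stood above the others. The difference was 0.29 ± 0.10 (adjusted p = 0.0922), and it passed without growing replicate 3 or 5, with a lowest adjusted p of 0.0324. CXCL17, a mucosal chemokine, ran from 6.70 to 7.19 in finishing steers and from 6.96 to 7.56 in growing steers. Its difference of -0.32 ± 0.10 did not pass (adjusted p = 0.0573), though it did without growing replicate 4 or finishing replicate 4 (lowest adjusted p = 0.0340). CCR6, the receptor of CCL20 on B cells and type 17 T cells, ran from 4.18 to 4.79 in finishing steers (median 4.36) and from 4.33 to 4.75 in growing steers (median 4.62). It differed by -0.19 ± 0.09 (adjusted p = 0.215) and passed without finishing replicates 5 and 6 together (adjusted p = 0.0383). CCL20 itself differed by 0.03 ± 0.09 at the dim end of the scale.

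For the remaining genes no difference reached an unadjusted p of 0.05. They were the T cell attractants CCL1, CCL17, CCL22, CCL25 and CCL28, the B cell pair CXCL13 and CXCR5, and the receptors CCR4, CCR8, CCR9 and CCR10. Their differences ran from -0.20 for CCR8 to 0.08 for CCL1. CXCR5, the B cell follicle receptor, had a wider spread in finishing steers, 3.73 to 4.85, against 4.20 to 4.79 in growing steers, and its ligand CXCL13 differed by -0.04 ± 0.08.

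Neighbouring genes gave both like and unlike values. XCR1 and CXCR6 are adjacent and both fell, and the next gene, CCR9, differed by -0.05 ± 0.10. CCR3 and CCR1, also adjacent, gave 0.02 and -0.20. CXCL10 and CXCL11 are adjacent too and gave -0.86 and -0.07.

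**Figure D5:**
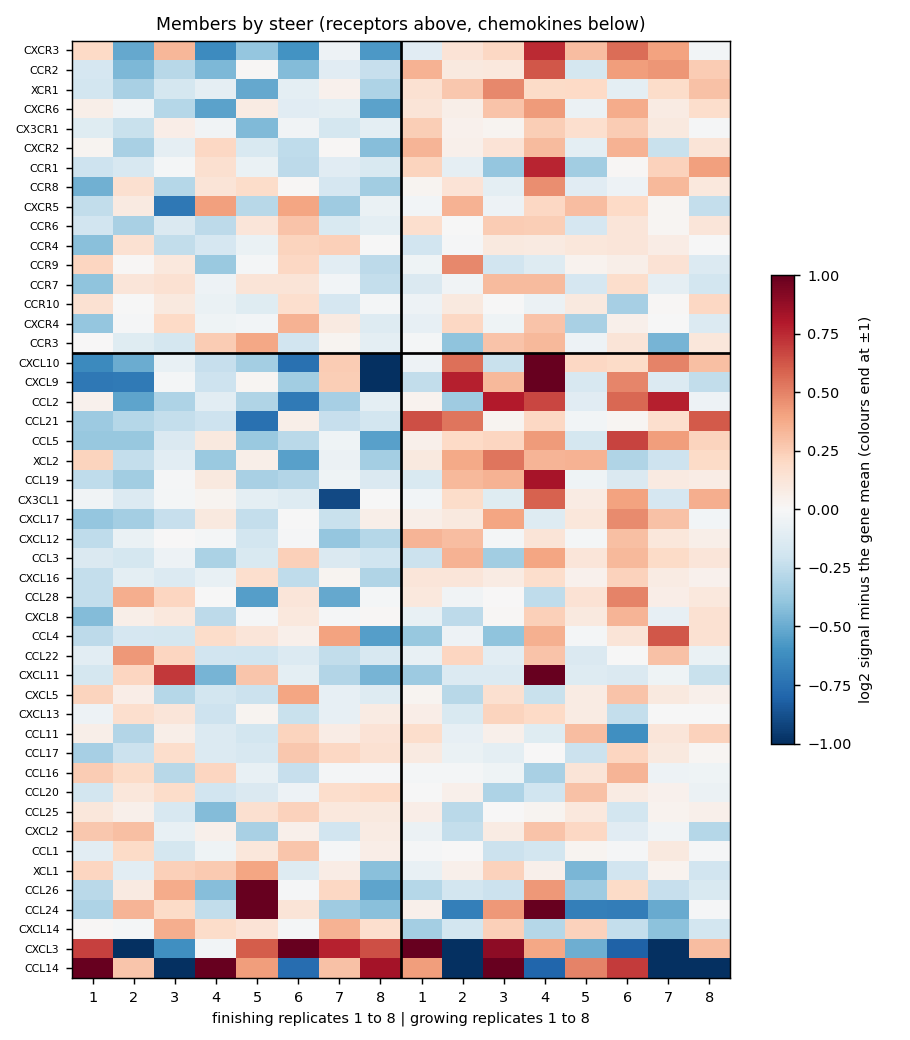
Log2 signal of each gene in each steer minus that gene's mean over the 16 steers, with receptors above and chemokines below, ordered by difference; finishing steers are left of the line and growing steers right. Growing replicate 4 has the highest value of its group in 16 of the 48 genes, and CXCL3 and CCL14 at the foot vary within both groups.

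Individual steers contributed unevenly. Growing replicate 4 had the highest signal of all 16 steers for 11 of the 48 genes, growing replicate 6 for 8, and growing replicate 3 and finishing replicate 6 for 6 each. Growing replicate 4 also had the highest mean signal of the 16 steers over the T and NK lymphocyte (6.16), B and plasma cell (5.77), Kupffer cell and macrophage (9.30) and monocyte and dendritic cell markers (5.63). The same steer was highest over the adhesion (7.64), receptor signalling (7.50) and NF-kB and inducer lists (7.17), whereas over neutrophil markers the highest was finishing replicate 6. The part of these cell markers in its chemokine values was not tested. Finishing replicates 1 and 8 were lowest of all steers for 7 genes each. Within-group spread was similar in the groups, with a median SD of 0.21 in finishing and 0.21 in growing steers.

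Of 37 genes measured that relay chemokine receptor signals, 11 fell and 0 rose, with a median difference of -0.18, beside 5.66% of named genes lower, 2.7% higher and a median of 0.01. They included GNAI2, the inhibitory G protein subunit that chemokine receptors couple to, by 0.39 ± 0.09 (adjusted p = 0.0131), and ARRB2, an arrestin that internalises them, by 0.59 ± 0.12 (adjusted p = 0.00735). Among haematopoietic relays, PIK3CG, the G protein-activated PI3 kinase, fell by 0.49 ± 0.12 (adjusted p = 0.0218), DOCK2, a Rac activator, by 0.38 ± 0.10 (adjusted p = 0.0246), and RAC2 by 0.69 ± 0.17 (adjusted p = 0.0200). PLCB3, a phospholipase with wider expression, fell by 0.58 ± 0.09 (adjusted p = 0.00224), and ARRB1, GRK5, RAC1, LYN and FGR made up the rest. In the leukocyte adhesion list 6 of 16 fell and 0 rose, beside the same 5.66%. They were the integrin chains ITGAL, ITGAM, ITGB2 and ITGB7, the selectin ligand SELPLG and AOC3, by 0.32 to 0.60. Only 4 of the 37 and 1 of the 16 had a mean below the median probe set, beside 7843 of the 18010 named genes. No share matched for signal was computed, so the contrast with named genes was not tested.

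Of 7 atypical and chemokine-like receptors measured, 2 fell, beside 5.66% of named genes, and the same count fell among 7 chemokine-cleaving enzymes. CMKLR1, the chemerin receptor of macrophages and NK cells, fell by 0.38 ± 0.09 (adjusted p = 0.0209), and GPR182, a scavenger receptor of sinusoidal endothelium that binds chemokines, by 0.40 ± 0.10 (adjusted p = 0.0246). The chemokine scavengers ACKR1, ACKR2, ACKR3 and ACKR4 had differences from -0.11 to 0.06 and did not pass. Among the enzymes ADAM10, which sheds CXCL16 and CX3CL1 from the cell surface, fell by 0.38 ± 0.07 (adjusted p = 0.00711), and MMP2 fell by 0.57 ± 0.09 (adjusted p = 0.00268). DPP4, which trims CXCL12 and several other chemokines, differed by -0.06 ± 0.09. NF-kB and cytokine genes that induce chemokines did not pass in any of 23 measured, with a median difference of 0.02. Among chemokines named otherwise, PF4, PPBP and MIF, none passed.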

How the data were processed

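Liver RNA of 16 steers was measured on 1 array each. Per the labels' protocols, total RNA was extracted with Trizol and labelled as biotinylated cRNA. GCOS 1.2 and Partek 6.4 appear, with no role, in the submitters' processing notes, and the summarisation and normalisation steps are not stated there or in the labels. Values in the deposited table run from 1.48 to 14.1 and were read as log2 signals; no further normalisation was applied.

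Gene names come from the platform annotation, in which 18457 of 26773 probe sets carry 1 symbol, 688 several and 7628 none. Where a gene had several probe sets, the one with the largest mean over the 16 arrays stood for it. The labels' oligo(dT) protocol and the annotation, which appears to be of a gene array, do not settle which array was used. The RefSeq table of assembly ARS-UCD2.0 gave gene neighbours only, for all 48 genes.

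Finishing was compared with growing by limma 3.58.1 in R 4.3.3 (lmFit, eBayes, 2-sided), Benjamini-Hochberg over 26773 probe sets, threshold 0.05. Full values are given for genes past it, genes with an unadjusted p under 0.05, the 6 with the highest mean, and partners of called genes. The members, lists and alternatives were chosen with earlier results of these data known. On simulated data for this comparison, 65.7% of probe sets changed by 0.5 were recovered, and 93.5% of those changed by 1. Alternatives were other array scalings, a variance trend, array weights, a filter on dim probe sets, named probe sets only, a replicate block, and leaving out arrays. Each of the 48 genes had 1 probe set, so averaging a gene's probe sets left their values as they were.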

Additional observations from a re-analysis of the deposited data

Results flagged for a closer look

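Within each group of 8 steers, the highest or lowest value of each of the 48 genes was set against the rest of its group. Of 96 such checks 9 found a steer standing apart. Independent and normally spread values would give about 1 in 20. Several genes stood apart in the same steer, so the checks were not independent and the count shows no excess over that rate. Growing replicate 4 stood above the other growing steers for CXCL9 (8.30, others 6.06 to 7.08), CXCL10 (7.86, others 5.69 to 6.46) and CXCL11 (5.53, others 3.69 to 4.01). Finishing replicate 5 stood above the other finishing steers for CCL24 (8.00, others 6.09 to 6.85) and CCL26 (6.45, others 4.55 to 5.45). CX3CL1 in finishing replicate 7 was low at 6.22, with the others between 6.99 and 7.15. CCL3 in finishing replicate 6 was high at 6.21, with the others between 5.65 and 5.91. In growing steers CCL11 was low in replicate 6 at 3.07 (others 3.56 to 3.99) and CCR4 was low in replicate 1 at 4.61 (others 4.79 to 4.92).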

How the results depend on the processing

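Members lower in finishing steers numbered 9, and 8 to 12 under other scalings, a variance trend, array weights, probe set filters or without finishing replicates 5 and 6. Leaving out 1 array gave 4 to 9 lower and 0 to 1 higher, the 1 being CXCL14 without growing replicate 3 or 5. Over all probe sets 1151 were lower and 626 higher; leaving out 1 array gave 858 to 1324 lower and 410 to 881 higher, and leaving out finishing replicates 5 and 6 gave 654 lower and 288 higher. Centring on 47 ribosomal protein genes gave 1427 lower and 403 higher, with 12 members lower and 0 higher; the cause was not tested. With the replicate number as a block 4 members (CCR2, XCR1, CCL5 and CCL21) were lower, and 642 probe sets were lower and 268 higher, with fewer degrees of freedom. Same-numbered steers did not deviate together over all probe sets (correlations -0.15 to 0.04). A pairing that touches few genes need not show in these values, so they do not settle whether the numbers pair steers. CCR2, XCR1 and CCL5 passed under every alternative run, and CCL21 under every one except the dim filter, which removed it. Among 1223 recomputed member differences none that passed changed sign; 52 that did not pass did, in 13 members. Without detection calls, dim members cannot be told apart from undetected ones.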
